A study of Homo sapiens with 8 samples.

Results

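The aldehyde dehydrogenases described here are 10 genes chosen by symbol: ALDH1A1, ALDH1A2, ALDH1A3, ALDH1B1, ALDH2, ALDH3A1, ALDH3A2, ALDH3B1, ALDH3B2 and ALDH7A1. They are 10 of 59050 gene rows in each count file, and all 10 were found. Their transcripts were counted in xenograft tumours of H2122, an established human lung adenocarcinoma cell line, that is, human cells grown in an animal host. One group was 4 tumours of parental cells (genotype labelled WT) and the other was 4 tumours of cells labelled SMARCA4 KO, in which the gene for a catalytic ATPase of SWI/SNF chromatin remodellers had been disrupted. All 8 tumours came with vehicle treatment, and the series title sets the comparison in work on immunity to SMARCA4-mutant lung cancer. The labels give neither the host's strain nor its age, and do not say whether the knockout cells were 1 clone. They number the tumours within a group without naming the animals, so p-values measure the spread between these samples. The sample titles also carry a further identifier whose meaning is not given. For parental replicate 4 the running number in the title differs from the replicate number.

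Aldehyde dehydrogenases oxidise reactive aldehydes to carboxylic acids with NAD+ or NADP+ as the electron acceptor. ALDH1A1, ALDH1A2 and ALDH1A3 convert retinaldehyde to retinoic acid, the ligand of the retinoic acid receptors. ALDH1B1 and ALDH2 work in mitochondria, where ALDH2 clears the acetaldehyde formed from ethanol. ALDH3A1, ALDH3A2 and ALDH3B1 act on medium- and long-chain aldehydes, many of them products of lipid peroxidation, and ALDH7A1 takes part in lysine breakdown. High ALDH1A1 or ALDH3A1 is a familiar feature of some lung cancers, and aldehyde dehydrogenase activity is widely used to sort stem-like tumour cells.

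Sequence is described first. The 3 retinaldehyde dehydrogenases make the same product. Of these, ALDH1A1 was called, ALDH1A3 was not, and ALDH1A2 had too few counts for the main test. Any part of promoter sequence in these results was not tested. RefSeq promoter sequences (GRCh38.p14) matched 7 of the 10 genes with 10 annotated starts. ALDH2, ALDH3A1 and ALDH3B2 were not matched, so no promoter result below covers them. The 250 bases before each start were searched. The ALDH1A1 sequence (chr9:72953054-72953303, minus strand) and the ALDH1A3 sequence (chr15:100879581-100879830, plus strand) are shown 5′ to 3′, ending just before the transcript start. Capitals mark CCAAT boxes (CCAAT), GC boxes (GGGCGG) and the core of the xenobiotic response element (GCGTG), on either strand.
ALDH1A1: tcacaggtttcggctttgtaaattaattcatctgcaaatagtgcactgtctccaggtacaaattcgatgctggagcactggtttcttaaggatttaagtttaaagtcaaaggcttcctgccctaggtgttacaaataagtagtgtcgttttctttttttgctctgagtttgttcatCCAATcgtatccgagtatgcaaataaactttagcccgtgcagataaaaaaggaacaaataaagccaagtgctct
ALDH1A3: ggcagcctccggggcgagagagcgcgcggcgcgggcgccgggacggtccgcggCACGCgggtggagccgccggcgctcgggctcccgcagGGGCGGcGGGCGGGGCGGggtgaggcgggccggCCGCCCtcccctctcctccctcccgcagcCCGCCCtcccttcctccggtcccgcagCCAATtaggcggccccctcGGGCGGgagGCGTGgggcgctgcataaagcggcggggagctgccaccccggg
The ALDH1A1 promoter was AT-rich. Its GC content was 38.4%, lower than in all but 10.1% of 35116 promoters, and it held 6 CpG dinucleotides against a median of 11. Its 1 capitalised match was a CCAAT box that begins 74 bases before the start. The ALDH1A3 promoter had a GC content of 82.4%, 38 CpG dinucleotides, 6 GC boxes of which some overlap, 2 xenobiotic response element cores and 1 CCAAT box.

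Across the promoters of the 7 matched members, CCAAT boxes were found at 6 of 10 starts and in 32% of all promoters of this length. GC boxes were found at 6 of 10 starts and in 42.6% of all promoters, and GCGTG at 3 of 10 starts and in 32.2%. No start held an antioxidant response element core (TGACNNNGC, 10.9% of all promoters), an AP-1 site (TGANTCA, 6.57%) or a TATA box spelled TATAAA (10.7%). These matches describe letters in a window and do not show binding.

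Coding sequences (GENCODE 29, the longest complete one per gene) were compared because reads of close copies can be hard to assign. The median identity over 45 pairs was 47.9%. The closest pair was ALDH3B1 and ALDH3B2 with 86.4% of 1158 aligned bases, which share a run of 64 bases and 35 stretches of 50 bases, or 2.58% of those in ALDH3B1. No other pair shared a stretch of 50 bases. The shared coding run is printed because a read lying wholly inside it cannot be told apart between these 2 genes.
ALDH3B1 and ALDH3B2: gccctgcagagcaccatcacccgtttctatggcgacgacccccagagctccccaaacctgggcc

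Reads counted in genes ranged from 19785922 to 23191698 among parental tumours, and the knockout totals (20662882 to 21981123) lay within that range. SMARCA4 itself stood at 198 to 235 CPM (read counts made relative to the TMM-scaled size of each library) in parental and 22.3 to 31.0 CPM in knockout tumours, and no library went against its label. Epithelial markers were present in every tumour, with EPCAM at 432 to 563 CPM; of the 6 tested, KRT7 fell by 0.71 and KRT19 by 1.01 on the log2 scale. Of 8 lung markers NKX2-1 and SFTPC had 0 counts throughout, and of the 4 tested FOXA1 fell by 0.81 (211 to 121 CPM), FOXA2 fell by 1.88 and SFTPD rose by 1.49. Leukocyte markers summed to 4.16 to 38.0 CPM over 10 genes in parental and 9.0 to 16.8 CPM in knockout tumours, with the highest sums in parental replicates 2 (38.0) and 3 (28.1). Fibroblast markers summed to 181 to 610 and 344 to 605 CPM over 9 genes, most of it from COL1A1 alone (173 to 571 and 316 to 564 CPM). Of the 5 fibroblast markers tested only LUM was called (0.374 ± 0.236 against 12.4 ± 2.49 CPM, SD, n = 4 each). Endothelial (7 genes) and adipocyte (6 genes, ADIPOQ at 0) markers summed to at most 18.3 and 9.05 CPM in any tumour, and VWF (1.97 to 0.378 CPM) and LIPE (5.85 to 2.38 CPM) were called lower. Any removal of host reads is not given. Counts of the non-epithelial markers, and likewise of the 10 genes, thus cannot be assigned to host cells or tumour cells. The part of these markers in the results was not tested.

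Of the 10 genes, 9 passed the filter on low counts, and edgeR's quasi-likelihood test with Benjamini-Hochberg adjustment over 16219 genes called 3 of them (adjusted p under 0.05). ALDH1A1 fell, while ALDH2 and ALDH3B1 rose. Over all genes tested 27% were called, 13% as higher and 14.1% as lower in knockout tumours, so the members' count was close to the background. The median log2 fold change of the 9 was 0.04, and that of all genes was 0.0034. In these bulk samples fewer cells of a type and less RNA per cell cannot be told apart.

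**Figure D1:**
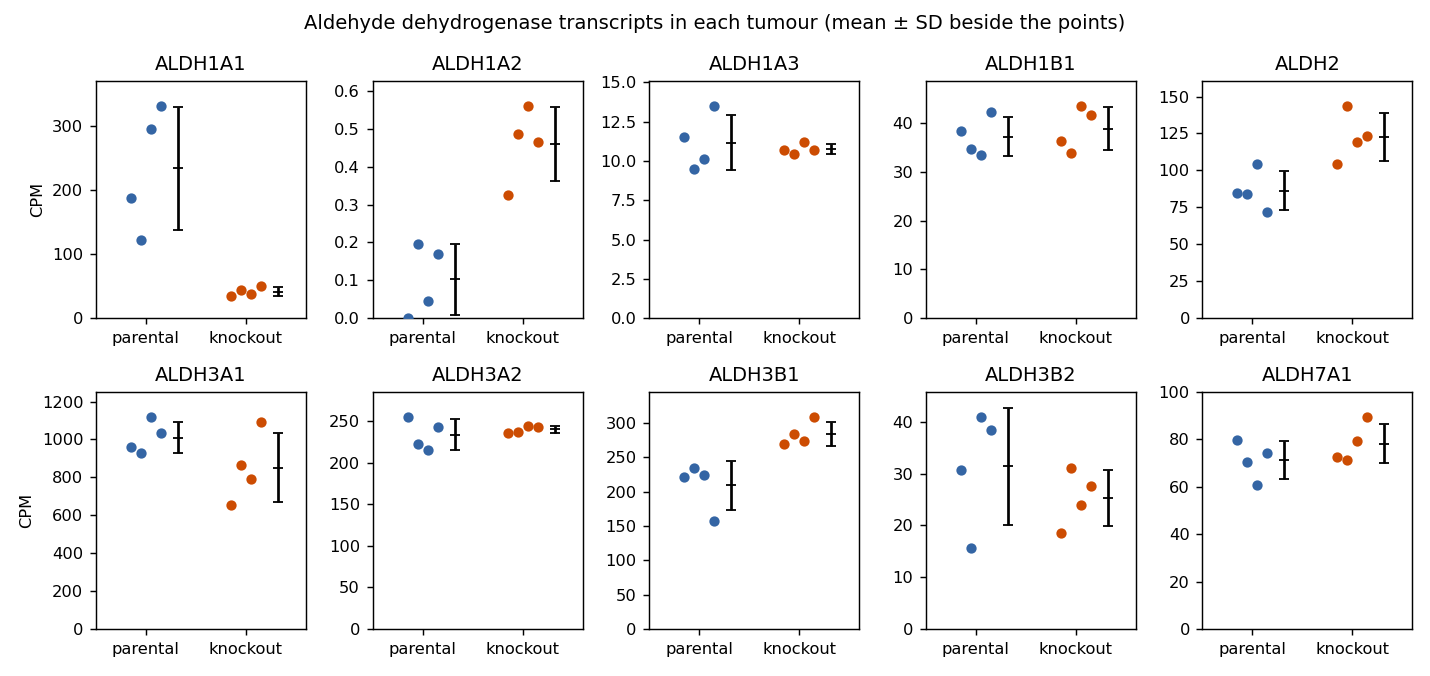
Level of each of the 10 aldehyde dehydrogenase genes in CPM (y axis, from 0, a separate scale per gene) in 4 parental (blue) and 4 SMARCA4 knockout (orange) tumours, with mean ± SD beside the points. ALDH1A1 is at 122 to 330 CPM in parental and at most 49.6 CPM in knockout tumours, and ALDH3B1 is higher in all 4 knockout tumours.

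Among the retinaldehyde dehydrogenases, ALDH1A1 (ENSG00000165092, chromosome 9, 72900662 to 73080442, minus strand, GENCODE 29 on GRCh38) had the largest fold change of the 9. Parental replicates 1 to 4 stood at 187, 122, 295 and 330 CPM. Knockout replicates 1 to 4 stood at 34.4, 44.0, 38.0 and 49.6 CPM. Every knockout tumour was below every parental tumour. The means were 234 ± 96.1 and 41.5 ± 6.72 CPM (SD, n = 4 each), and the change on the log2 scale was -2.49 (standard error 0.273, edgeR adjusted p = 5.88e-05), a level of 17.8% of the parental one. Parental tumours differed among themselves by a factor of 2.70, with a coefficient of variation of 41.1% against 16.2% in knockout tumours. The lowest parental tumour for ALDH1A1, replicate 2, had the highest leukocyte (38.0 CPM) and fibroblast (610 CPM) marker sums. The highest, replicate 4, had the lowest of both (4.16 and 181 CPM). Replicate 3, second in the leukocyte sum, was second highest for ALDH1A1. Fibroblast sums of parental replicates 1 to 4 were 351, 610, 348 and 181 CPM, the reverse order of ALDH1A1. In knockout replicates 1 to 4 they were 590, 344, 605 and 379 CPM, without that exact order. The part of these markers in the result was not tested. Without parental replicate 2 the log2 fold change was -2.71, and no left-out tumour brought it above -2.29.

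ALDH1A2 (ENSG00000128918, chromosome 15, 57953424 to 58497866, minus strand), the main retinaldehyde dehydrogenase of the early embryo, was barely detected. It had 0, 4, 1 and 4 counts in parental and 7, 10, 12 and 10 counts in knockout replicates 1 to 4, too few for the filter. The knockout counts were all above the parental ones. In CPM the means were 0.102 ± 0.0948 and 0.460 ± 0.0973 (SD, n = 4 each; exact two-sided permutation p = 0.0286, the smallest that 4 against 4 allows). The ratio of pooled counts, knockout over parental, was 4.38 (exact 95% interval 2.09 to 10.3, counting error only), and 3.39 to 6.0 when 1 tumour was left out. In a fit without the filter, ALDH1A2 had a log2 fold change of 2.06 (edgeR adjusted p = 0.0151), where 14.6% of 33657 genes were called, 6.37% as higher and 8.19% as lower. Per kilobase of exon ALDH1A2 reached 0.0533 CPM in knockout tumours, against 14.6 CPM for ALDH1A1. Exons of AQP9 on the opposite strand cover 4.11% of ALDH1A2's exon bases, and AQP9 averaged 0.362 CPM. With the strandedness of the counting not given, reads over these shared bases may be separated by strand or set aside as ambiguous.

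ALDH1A3 (ENSG00000184254, chromosome 15, 100877714 to 100916626, plus strand), the third enzyme of this kind, was at 11.5, 9.51, 10.1 and 13.5 CPM in parental tumours. Knockout replicates 1 to 4 were at 10.7, 10.4, 11.2 and 10.7 CPM, inside the parental range. The change on the log2 scale was -0.06 (standard error 0.129, edgeR adjusted p = 0.792), with a 95% interval of -0.37 to 0.26, which leaves room for a change of that size in either direction. Exons of AC015712.2 on the opposite strand cover 27.5% of ALDH1A3's exon bases, and that gene averaged 3.41 CPM. Since the strandedness of the counting is not given, reads over these shared bases may be separated by strand or set aside as ambiguous. Ambiguous reads were 3.98% to 4.31% of each library and are not in these levels.

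Of the mitochondrial pair, ALDH2 was called and ALDH1B1 was not; the difference between their changes was not tested. ALDH2 (ENSG00000111275, chromosome 12, 111766887 to 111817529, plus strand) was at 84.8, 84.4, 104 and 72.1 CPM in parental and 104, 143, 119 and 123 CPM in knockout replicates 1 to 4. The groups met at 104 CPM, where the highest parental and the lowest knockout tumour coincided. The mean of ALDH2 rose from 86.3 ± 13.2 CPM in parental to 122 ± 16.2 CPM (SD, 4 tumours per group), by a log2 change of 0.50 (standard error 0.126, edgeR adjusted p = 0.0120) or 1.42-fold. The call held without any 1 tumour (0.42 to 0.60, adjusted p at most 0.0396).

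ALDH1B1 (ENSG00000137124, chromosome 9, 38392664 to 38398661, plus strand), closest to ALDH2 in coding sequence at 71.5% identity, had levels of 33.5 to 42.3 CPM in parental and 33.9 to 43.4 CPM in knockout tumours. The ranges were nearly the same. The change on the log2 scale was 0.06 (standard error 0.11, edgeR adjusted p = 0.724), with a 95% interval of -0.21 to 0.33.

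ALDH3A1 (ENSG00000108602, chromosome 17, 19737984 to 19748943, minus strand), which oxidises lipid peroxidation products and is abundant in the cornea, was the most abundant of the 10 genes. Parental replicates 1 to 4 were at 960, 929, 1118 and 1032 CPM, and knockout replicates 1 to 4 at 653, 868, 792 and 1092 CPM. Of the knockout tumours, 3 were below all parental tumours, while replicate 4 lay within the parental range. The log2 change of -0.25 (standard error 0.140, edgeR adjusted p = 0.226) did not pass. It depended on that tumour: without knockout replicate 4 the value was -0.39 with an adjusted p of 0.0369.

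ALDH3A2 (ENSG00000072210, chromosome 17, 19648136 to 19677598, plus strand) lies near ALDH3A1 and encodes the fatty aldehyde dehydrogenase whose loss causes Sjögren-Larsson syndrome. It was the steadiest member, at 215 to 255 CPM in parental and 236 to 245 CPM in knockout tumours. The knockout values all fell inside the parental range, with a coefficient of variation of 1.82%. The change on the log2 scale was 0.04 (standard error 0.0806, edgeR adjusted p = 0.770), with a 95% interval of -0.16 to 0.24. ALDH3A1 and ALDH3A2 share 67.0% of their aligned coding bases but no stretch of 50 bases.

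ALDH3B1 (ENSG00000006534, chromosome 11, 68008578 to 68029282, plus strand), which acts on medium- and long-chain aldehydes at membranes, was at 221, 235, 224 and 157 CPM in parental and 269, 283, 273 and 308 CPM in knockout replicates 1 to 4. All knockout tumours were above all parental tumours. The means were 209 ± 35.5 and 283 ± 17.8 CPM (SD, 4 tumours per group), a log2 change of 0.44 (standard error 0.122, edgeR adjusted p = 0.0206) or 1.35-fold. The call was lost without knockout replicate 4 (0.40, adjusted p = 0.0529), and the smallest fold change, 0.32, came without parental replicate 4, the lowest tumour. That tumour, also the lowest for ALDH2, had the smallest fibroblast (181 CPM, mostly COL1A1) and leukocyte (4.16 CPM) marker sums, whose part in the result was not tested.

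Its close copy ALDH3B2 (ENSG00000132746, chromosome 11, 67662162 to 67681200, minus strand) was at 30.6, 15.7, 40.9 and 38.4 CPM in parental and 18.6, 31.1, 24.0 and 27.5 CPM in knockout replicates 1 to 4. The knockout values lay within the wide parental range. The change on the log2 scale was -0.31 (standard error 0.256, edgeR adjusted p = 0.402). Without parental replicate 2, the lowest tumour, it was -0.54 with an adjusted p of 0.0333. The coding run printed above is common to ALDH3B1 and ALDH3B2, whose fold changes had opposite signs. Reads lying wholly inside it may be among those set aside as not unique, 4.52% to 8.11% of each library. Such reads are not in these levels.

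ALDH7A1 (ENSG00000164904, chromosome 5, 126531200 to 126595418, minus strand) oxidises the semialdehyde of lysine breakdown and is mutated in pyridoxine-dependent epilepsy. It was at 60.7 to 79.8 CPM in parental and 71.5 to 89.4 CPM in knockout tumours, with overlapping groups. The change on the log2 scale was 0.13 (standard error 0.106, edgeR adjusted p = 0.383), with a 95% interval of -0.12 to 0.39.

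Of the 9 genes that passed the filter, ALDH1A1 and ALDH3B1 had groups without overlap, as did 29.3% of all genes tested. ALDH1A2, under the filter, had such groups too.

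**Figure D2:**
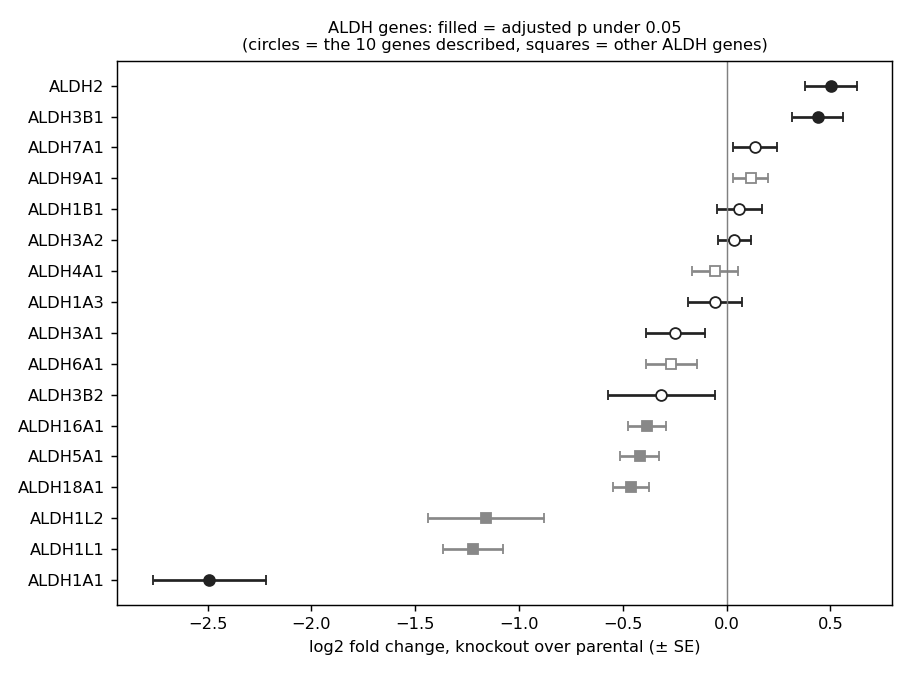
Log2 fold change ± SE, knockout over parental (x axis), of the 17 tested genes of the ALDH superfamily; circles are members, squares the other ALDH genes, and filled symbols passed the edgeR threshold. ALDH1A1 lies farthest from 0 at -2.49, and ALDH2 and ALDH3B1 are the only filled symbols to the right of 0.

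Levels of different genes were compared per kilobase of annotated exon. In parental tumours the order of mean level was ALDH3A1 (258 ± 21.4 CPM per kb), ALDH1A1 (82.0 ± 33.7), ALDH3A2 (36.3 ± 2.86), ALDH3B1 (31.6 ± 5.36), ALDH1B1 (11.8 ± 1.27), ALDH3B2 (9.70 ± 3.51), ALDH2 (8.88 ± 1.36), ALDH7A1 (3.97 ± 0.447), ALDH1A3 (1.93 ± 0.304) and ALDH1A2 (0.0119 ± 0.0110), each SD with n = 4. Neighbours whose ranges overlapped were ALDH3A2 with ALDH3B1, ALDH1B1 with ALDH3B2, and ALDH3B2 with ALDH2. In knockout tumours ALDH3A1 again led at 217 ± 46.8 CPM per kb. ALDH3B1 followed at 42.8 ± 2.68 CPM per kb, then ALDH3A2 at 37.2 ± 0.679 and ALDH1A1 at 14.6 ± 2.36, level with ALDH2 within its range (12.6 ± 1.66). ALDH2 and ALDH1B1 (12.3 ± 1.39) also overlapped, and ALDH3B2 (7.82 ± 1.65), ALDH7A1 (4.35 ± 0.457), ALDH1A3 (1.86 ± 0.0556) and ALDH1A2 (0.0533 ± 0.0113) came last. The place of ALDH7A1 depends on the length used, since its annotated exons span 17970 bases in all and its longest transcript 4964. With the longest transcript, ALDH7A1 made up 1.74% ± 0.305 of the summed level of all ALDH genes in parental tumours, above ALDH1B1 (1.46% ± 0.180), ALDH3B2 (1.39% ± 0.405) and ALDH2 (1.09% ± 0.164). In knockout tumours ALDH7A1 made up 2.38% ± 0.231 on that length, above ALDH2 (1.93% ± 0.236) and ALDH1B1 (1.92% ± 0.296). The order of ALDH3B1 and ALDH3A2 in knockout tumours depends on the length too. With the longest transcript, ALDH3A2 (9.31% ± 1.28) was above ALDH3B1 (7.29% ± 0.677).

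Summed over the 19 ALDH genes, the length-scaled level was 534 ± 54.4 CPM per kb over the 4 parental and 425 ± 56.8 over the 4 knockout tumours (SD). ALDH3A1 made up 48.3% ± 1.76 of it in parental and 50.7% ± 4.12 in knockout tumours. ALDH1A1 held 12.9%, 9.11%, 17.6% and 20.3% in the parental tumours, by replicate number, and 3.36%, 3.55%, 3.25% and 3.51% in the knockout ones. The 4 knockout shares of ALDH1A1 thus lay close together and under every parental share. ALDH3B1 went from 6.0% ± 1.44 to 10.1% ± 0.818 of the sum. These shares depend on the annotated length and on each other, and they were not tested.

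**Figure D3:**
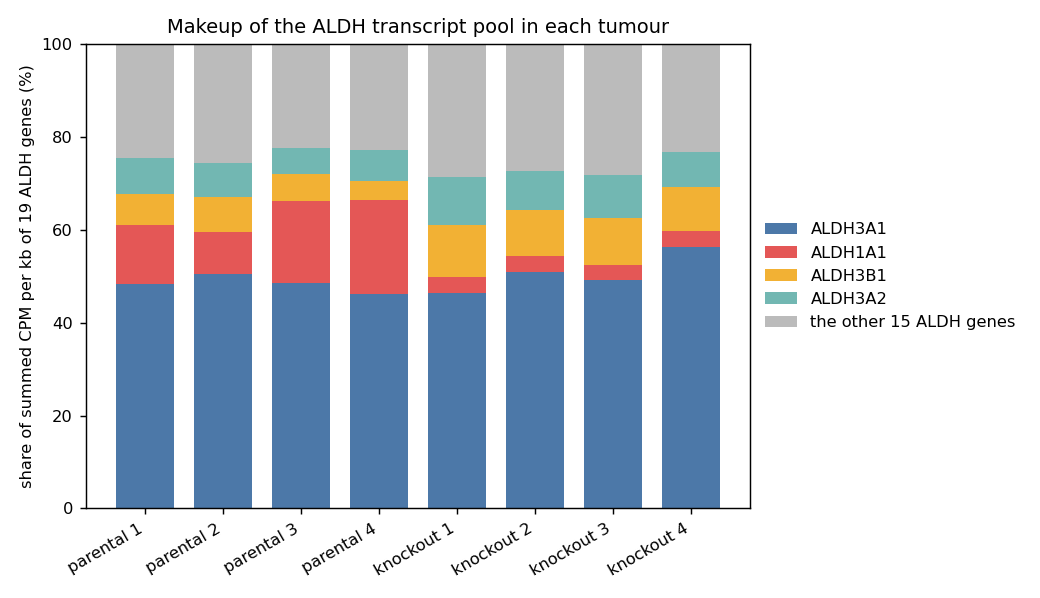
Share of the summed CPM per kb of 19 ALDH genes (y axis, %) held by ALDH3A1, ALDH1A1, ALDH3B1, ALDH3A2 and the other ALDH genes in each of the 8 tumours. The ALDH1A1 segment shrinks from 9.11% to 20.3% in parental tumours to 3.25% to 3.55% in knockout tumours, while the ALDH3A1 segment averages 48.3% in parental and 50.7% in knockout tumours.

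Of the other 9 ALDH genes, 8 were tested and 5 were called, all of them lower after knockout (median of the 8 on the log2 scale -0.40), where 27% of all genes tested were called and 14.1% were lower. ALDH1L1 and ALDH1L2, the cytosolic and mitochondrial 10-formyltetrahydrofolate dehydrogenases, had log2 fold changes of -1.22 (21.1 ± 3.80 to 9.05 ± 0.881 CPM, edgeR adjusted p = 9.84e-05) and -1.16 (4.0 ± 0.834 to 1.79 ± 0.737 CPM, adjusted p = 0.0101; SD, n = 4 each). ALDH18A1, which makes the proline precursor pyrroline-5-carboxylate, fell by 0.46 on the log2 scale (adjusted p = 0.00254). ALDH5A1, the succinic semialdehyde dehydrogenase, fell by 0.42 (adjusted p = 0.00662) and ALDH16A1 by 0.38 (adjusted p = 0.0104). ALDH4A1 (-0.05), ALDH6A1 (-0.27) and ALDH9A1 (0.12) were not called, and ALDH8A1 had 15 and 20 counts in the parental and knockout groups.

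Retinoid genes were read beside the retinaldehyde dehydrogenases. Of 25 such genes, 17 were tested: 2 rose and 6 fell, and their median was -0.08 on the log2 scale (all genes: 13% higher, 14.1% lower). DHRS3, which reduces retinaldehyde back to retinol, fell by 1.52 on the log2 scale (101 ± 18.8 to 35.2 ± 6.92 CPM, SD, n = 4 each; edgeR adjusted p = 4.57e-05). The receptor RARG fell by 1.06 (adjusted p = 9.83e-05) and RDH13 rose by 0.80 (adjusted p = 4.92e-05). CYP26B1, which degrades retinoic acid, rose by 1.14 (adjusted p = 0.00133). Named after their values were seen, the remaining called genes were RDH10 (-0.95), which supplies retinaldehyde, and STRA6 (-1.25), CRABP2 (-2.82) and RARA (-0.74).

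**Figure D4:**
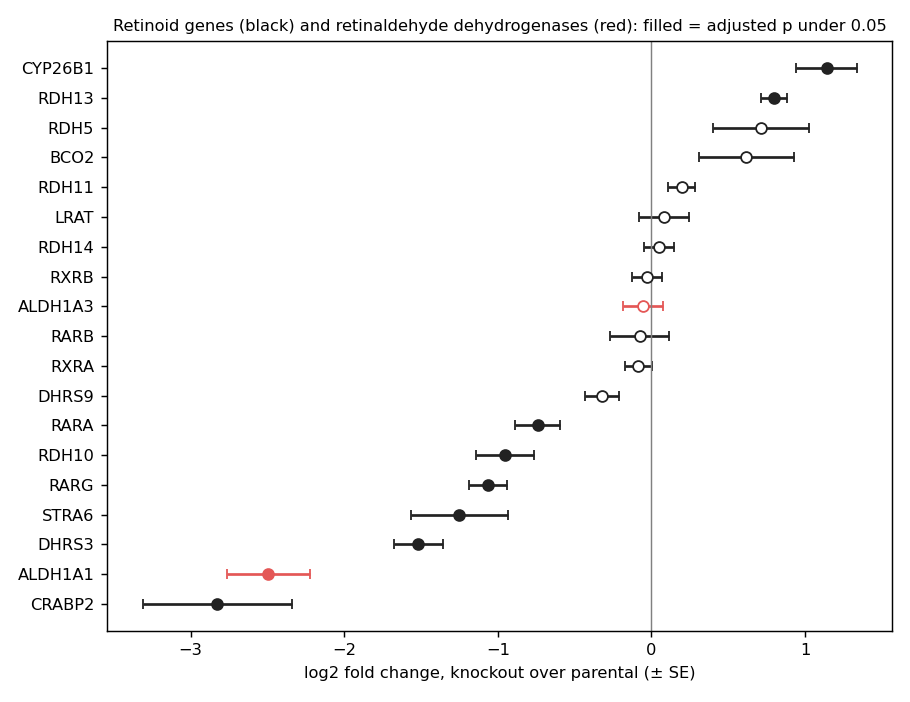
Log2 fold change ± SE, knockout over parental (x axis), of 17 tested retinoid genes (black) and of ALDH1A1 and ALDH1A3 (red); filled symbols passed the edgeR threshold. ALDH1A1 at -2.49 lies between CRABP2 at -2.82 and DHRS3 at -1.52, and ALDH1A3 is near 0.

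Enzymes that produce aldehydes and other enzymes that clear them were counted in the same fit. Of 20 alcohol dehydrogenases, amine oxidases and similar sources, 14 were tested, with 4 higher, 4 lower and a median log2 fold change of -0.0039 (all genes: 13% higher, 14.1% lower). ADH7, a retinol and ethanol dehydrogenase of epithelia, had 136 counts in parental and 0 in knockout libraries, at least 44.8-fold lower when the knockout group is allowed 3 counts. Spermine oxidase SMOX rose by 0.95 (edgeR adjusted p = 1.08e-05), AOC3 rose by 1.69 (adjusted p = 0.00181) and monoamine oxidase MAOA fell by 1.27 (adjusted p = 0.000825). Of 18 other clearing enzymes, all tested, 2 rose and 5 fell (median -0.14), beside the same shares over all genes; only 4 were called without knockout replicate 1 or without knockout replicate 2. AKR1C2 rose by 1.04 and AKR1C1 fell by 1.06 (edgeR adjusted p = 2.24e-05 and 8.48e-05). These aldo-keto reductases are close copies, and the effect of shared sequence on their counts was not tested. CBR3 fell by 1.17 (adjusted p = 0.00670) and AKR7A2 by 0.34 (adjusted p = 0.0156).

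ALDH3A1 belongs to the classical gene battery of the aryl hydrocarbon receptor AHR, so that list was read beside it. Of its 9 genes 6 were tested; 1 rose and 2 fell, with a median log2 fold change of -0.08 (27% of all genes were called). CYP1B1 rose by 1.27 (edgeR adjusted p = 0.000130), while AHR itself fell by 0.86 (adjusted p = 0.000152) and UGT1A6, whose exons overlap those of other UGT1A genes, fell by 2.49 (adjusted p = 3.43e-07). CYP1A1 had at most 0.0466 CPM in any tumour. Of 14 partners of ALDH7A1 and ALDH5A1 in lysine, choline and GABA breakdown, 6 were tested and 3 called, against 27% of all genes; CHDH rose by 0.58 (adjusted p = 0.00262), GAD1 fell by 1.70 (adjusted p = 0.00229) and GCDH fell by 0.32 (adjusted p = 0.0285, lost under several alternatives).

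The nearest tested genes on either side of each called member gave no common direction. Beside ALDH1A1, ZFAND5, 535427 bases away, was not called (0.06, edgeR adjusted p = 0.619). ANXA1, 71315 bases from the annotated span of ALDH1A1, rose by 0.52 (edgeR adjusted p = 0.0180), opposite to ALDH1A1. The ALDH1A1 promoter printed above lies inside that span, farther from ANXA1. Beside ALDH2, ACAD10 had 0.24 (adjusted p = 0.0694) and MAPKAPK5-AS1 0.17 (adjusted p = 0.183). Beside ALDH3B1, UNC93B1 fell by 0.52 (adjusted p = 0.00512), opposite to ALDH3B1, and NDUFS8, 1335 bases away, had 0.13 (adjusted p = 0.287).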

How the data were processed

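RNA of 8 xenograft tumours, 4 parental and 4 SMARCA4 knockout, was sequenced. The authors deposited, for each tumour, a file of whole-number read counts by gene symbol, laid out as htseq-count writes it. Per the submitters' processing notes, TopHat2 2.1.1, HTSeq 0.11.0 and the build hg38 were used; annotation, counting options, strandedness and any removal of mouse reads are not given in the sources used here. The 5 summary lines of each file (14.8% to 20.9% of reads) were left out. Genes were filtered with filterByExpr (minimum count 10, minimum total 15), scaled by TMM and compared by the quasi-likelihood test of edgeR 4.0.16 in R 4.3.3 with no covariate; 16219 genes were tested and p-values adjusted by the Benjamini-Hochberg method. The 95% interval of a log2 fold change uses 6 residual degrees of freedom.

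Libraries differed by more than sampling noise in every pair (chi-square per degree of freedom of at least 8.21). Exon lengths and positions are from GENCODE 29, matched by symbol for 98.0% of tested genes; coding sequences were aligned with MAFFT 7.526. Intervals of pooled counts cover counting error only, since reads are not independent molecules. The members and gene lists were chosen with earlier results of these data known; 1 gene of the retinoid list is not reported here. Named are SMARCA4, the members, the other ALDH genes, up to 4 called genes of each list by p, the neighbours of called members, and 3 genes most like the called member with the smallest p. Alternatives were 3 scalings, 2 filters, DESeq2 1.42.0, limma-voom (limma 3.58.1), library sizes without the 10 most abundant genes, a replicate block, leaving out each tumour and transcript length.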

Additional observations from a re-analysis of the deposited data

Results flagged for a closer look

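Among 93 sets of 4 values of the named genes, 2 held a tumour far from the other 3, where chance gives about 1 in 20. UGT1A6 was at 59.3 CPM in parental replicate 2 against 47.3 to 49.0 CPM in the other parental tumours. NDUFS8, the neighbour of ALDH3B1, was at 60.8 CPM in parental replicate 3 against 67.5 to 68.8 CPM in the others. No value of the 10 aldehyde dehydrogenase genes was set apart in this way.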

How the results depend on the processing

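ALDH1A1 and ALDH2 kept their direction and call under every alternative run (-2.71 to -2.29 and 0.42 to 0.60 on the log2 scale). Leaving out 1 tumour gave 1 to 3 members called higher, 1 to 2 called lower, 3501 to 4721 genes called in all and 4 to 10 other clearing enzymes called. Among the ALDH genes it also turned the sign of 3 that were not called: ALDH1A3 (-0.13 to 0.043, positive without parental replicate 4), ALDH3A2 (-0.0027 to 0.074, negative without parental replicate 3) and ALDH4A1 (-0.11 to 0.0030, positive without knockout replicate 1). With the longest annotated transcript as the length, the share of the family total was 56.5% in parental and 59.1% in knockout tumours for ALDH3A1, and 2.95% in knockout tumours for ALDH1A1. With the replicate number as a block, 3871 genes were called, ALDH3B1 had 0.45 (edgeR adjusted p = 0.0422) and of the named genes only GCDH lost its call (adjusted p = 0.0689). The numbers are not shown to pair the tumours: correlations of same-numbered deviations ran from -0.187 to 0.0863, and 0 of 4 parental tumours correlated best with their own number. GCDH also lost its call with upper-quartile scaling (adjusted p = 0.0551), without the filter (0.0846) and without 5 of the tumours in turn, and ACAD10 gained one with upper-quartile scaling (0.0499). AKR7A2 lost its call without knockout replicate 1 (0.0580) and without knockout replicate 2 (0.0541). The cause of these changes was not tested. Depth limits ALDH1A2 and ALDH8A1, whose 48 and 35 counts over 8 libraries keep them under the filter of the main fit. With 1 tumour left out, ALDH1A2 passed the filter in 2 fits. It was called higher in both (1.71 to 2.51 on the log2 scale, edgeR adjusted p = 0.0126 to 0.0299).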

Other observations

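The genes whose log2 CPM over the 8 tumours was most like that of ALDH1A1, among the 13048 tested genes whose mean log2 CPM was 1 or more, were CENPBD1P1, PIK3R3 and SOX2. Their Pearson correlations with ALDH1A1 were 0.996, 0.995 and 0.995, and their ranks over the tumours were the same as those of ALDH1A1 (Spearman correlation of 1). The tumours fall into their 2 groups on all 4 genes, which share libraries, so these values describe likeness only. CENPBD1P1 had a log2 fold change of -0.37 (edgeR adjusted p = 0.00942), PIK3R3 of -1.57 (adjusted p = 0.000405) and SOX2 of -1.45 (adjusted p = 7.18e-05). SOX2, a transcription factor of foregut and stem cells, averaged 26.0 ± 5.26 CPM over the 4 parental tumours and 9.49 ± 1.41 CPM over the 4 knockout tumours (SD).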
